A study of Rattus norvegicus with 10 samples.

Results

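Lymphocyte nuclei made up 700 of 22037 nuclei recovered from the area at risk of infarcted rat hearts, the muscle fed by the left coronary artery, which was ligated. Hearts were from rats given BT2 (100 mg/kg), a code-named small molecule, or vehicle, and the nuclei were taken at 24 h, 1 library for each. A set of 8 tissue RNA libraries of the same region, 2 per group from BT2 and vehicle rats at 4 h and at 24 h, was used beside them. The dose behind the tissue libraries, the strain, sex and age of the animals, and whether each library was a separate animal are not given by the labels, so p-values measure the spread between these samples. In the titles the clock starts at ligation, in the series text at the injury by ischaemia and reperfusion.

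The nuclei were selected on UMI counts of 16 genes. A nucleus was taken as lymphocyte when it held at least 500 UMIs (unique molecular identifiers, 1 per captured transcript), at least 2 UMIs summed over 9 lymphocyte genes, at most 1 UMI over the dendritic genes Flt3, Ciita and Wdfy4, and at most 1 over Csf1r, Flt1, Pdgfra and Csf3r, which mark macrophages, endothelium, fibroblasts and neutrophils. The 9 genes were the T-side genes Skap1, Themis, Cd247, Bcl11b, Cd3e and Cd3g and the B-side genes Pax5, Bank1 and Ms4a1. The levels of these 16 genes are therefore a description of the choice and support nothing. T cells recognise antigen through a receptor coupled to the CD3 chains and kinases such as Lck and Zap70. Natural killer (NK) cells lack that receptor and read target cells through killer lectin-like receptors such as Klrd1 and Klrk1, while B cells are specified by Pax5 and Ebf1. In an infarct, lymphocytes are a minority beside neutrophils and macrophages.

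The rule took 306 of 10497 nuclei in the BT2 library (2.92%, exact 95% binomial interval 2.60 to 3.26) and 394 of 11540 in the vehicle library (3.41%, 3.09 to 3.76). Among nuclei with a UMI of Ptprc, the pan-leukocyte phosphatase CD45, they were 4.95% (4.35 to 5.61) with BT2 and 5.06% (4.56 to 5.60) with vehicle. The intervals overlapped for both denominators. They cover counting error only, and with 1 library per group there is no test between BT2 and vehicle nuclei.

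**Figure D1:**
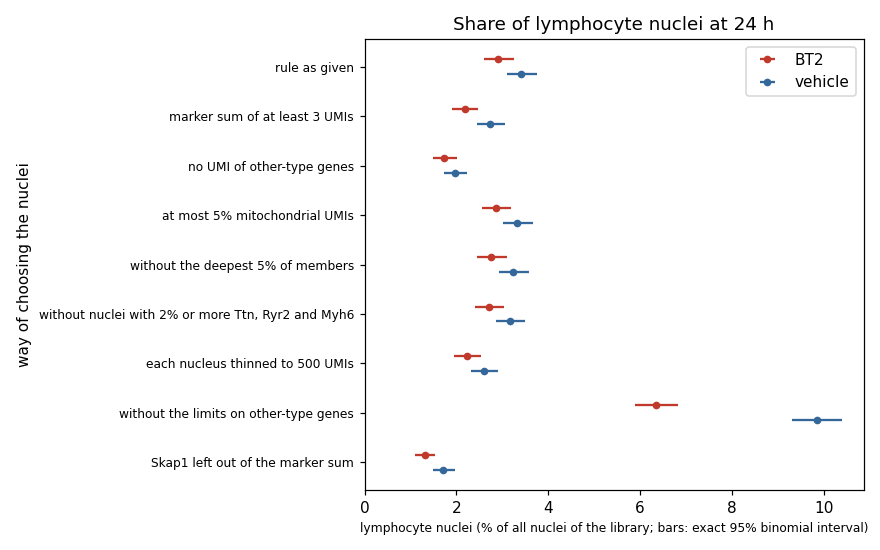
Lymphocyte nuclei as a percent of all nuclei of the library (x axis), BT2 above vehicle within each way of choosing them (y axis), with exact 95% binomial intervals. The rule as given has 2.92% in BT2 and 3.41% in vehicle, and the BT2 point lies left of the vehicle point in every row.

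Depth and purity differed between the libraries. Members had a median of 1109 UMIs in BT2 and 1407 in vehicle, below the 2171 of all other BT2 nuclei and the 2496 of all other vehicle nuclei. Many nuclei lay near the limits: 77 BT2 and 78 vehicle members had a marker sum of exactly 2, and 277 BT2 and 223 vehicle nuclei stood just outside with a sum of 1. A further 360 BT2 and 742 vehicle nuclei had the marker sum but exceeded a limit on other-type genes, with medians of 3962.5 UMIs in BT2 and 7586 in vehicle. No doublet caller was run, so nuclei of more than 1 cell were removed only as far as those limits do it. The 2 libraries shared 37 barcodes, and 0 barcodes were members in both. Ptprc was seen in 75.8% of BT2 members and 89.3% of vehicle members, against 43.7% of the other BT2 nuclei and 59.3% of the other vehicle nuclei. With every nucleus thinned to 500 UMIs the shares were 53.3% of BT2 and 65.7% of vehicle members, and 19.0% of other BT2 and 30.6% of other vehicle nuclei.

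T-side genes alone accounted for 257 BT2 members (84.0%) and 310 vehicle members (78.7%). B-side genes alone accounted for 36 BT2 (11.8%, 8.38 to 15.9) and 58 vehicle members (14.7%, 11.4 to 18.6), and the remaining 13 BT2 and 26 vehicle members held both. Skap1, an adaptor of T cell and NK cell adhesion signalling, was the sole marker in 110 BT2 (35.9%) and 123 vehicle members (31.2%). Another 132 BT2 (43.1%) and 177 vehicle members (44.9%) held Skap1 with a further T-side gene.

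Genes outside the rule differed between these pieces. Lef1, a transcription factor of naive T cells, was seen in 26 of 132 BT2 and 40 of 177 vehicle nuclei with Skap1 and another T gene, and in 2 of 110 BT2 and 5 of 123 vehicle nuclei with Skap1 alone. Foxp3, the factor of regulatory T cells, had 3 UMIs in BT2 and 8 in vehicle nuclei of the first piece and none in the second, and 1 further vehicle UMI lay in a nucleus with T genes but no Skap1. Klri1, an NK cell lectin-like receptor, ran the other way, at 26.4% of BT2 and 35.0% of vehicle Skap1-alone nuclei, against 12.9% of BT2 and 11.9% of vehicle nuclei with a further T gene. Klrk1, an activating receptor of NK and CD8 T cells, was at 17.3% of BT2 and 22.8% of vehicle Skap1-alone nuclei, against 10.6% of BT2 and 23.7% of vehicle nuclei with a further T gene, so the order of the pieces was not the same in both libraries. These genes were named after their values were seen, and the pieces come from the same nuclei and genes, so the contrast is a description. Cd8a marks some rat NK cells as well as T cells, and Cd4 was seen in fewer lymphocyte than macrophage nuclei (4.25% of BT2 and 7.87% of vehicle lymphocyte nuclei, 15.8% of BT2 and 15.4% of vehicle macrophage nuclei).

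B-side nuclei held other genes. Bach2, a repressor that holds B cells short of plasma cell fate, was seen in 86.1% of BT2 and 72.4% of vehicle B-side nuclei, and Ralgps2 in 33.3% of BT2 and 48.3% of vehicle B-side nuclei. Cd96, an NK and T cell receptor, and Il2rb, the shared interleukin-2 and interleukin-15 receptor chain, were seen in none of the 36 BT2 and 58 vehicle B-side nuclei, which allows shares of nuclei with a UMI of up to 8.33% in BT2 and 5.17% in vehicle and does not limit how many express the genes. B-side nuclei had medians of 993.5 UMIs in BT2 and 1247.5 in vehicle, and over all members Cd96 was seen in 16.7% with BT2 and 24.1% with vehicle, and Il2rb in 16.7% with BT2 and 19.5% with vehicle. Ebf1 was at 83.3% of BT2 and 70.7% of vehicle B-side nuclei, but also at 64.5% of BT2 and 42.3% of vehicle Skap1-alone nuclei. Markers of other cells stood beside the B-side genes. The 6 dendritic markers outside the rule, among them Cd74, which B cells also express, were seen in 30.6% of BT2 and 25.9% of vehicle B-side nuclei. In Skap1-alone nuclei they were seen in 4.55% of BT2 and 6.50% of vehicle nuclei, and in nuclei with a further T gene in 1.52% of BT2 and 5.65% of vehicle nuclei. Macrophage markers outside the rule summed to 2577 CPM (UMI counts scaled to the total over the same nuclei) in BT2 and 1686 CPM in vehicle B-side nuclei. They summed to 698 CPM in BT2 and 1102 CPM in vehicle Skap1-alone nuclei, and to 547 CPM in BT2 and 1141 CPM in vehicle nuclei with a further T gene. Their part in the B-side values was not tested.

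**Figure D2:**
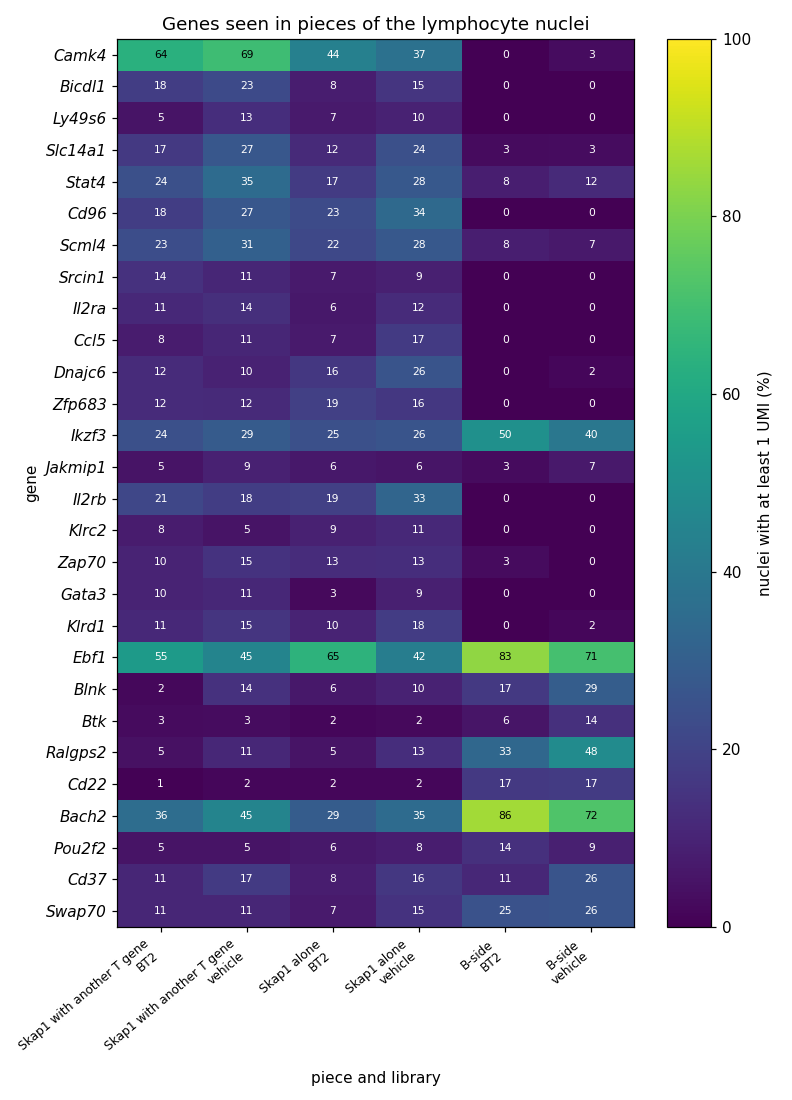
Percent of nuclei with at least 1 UMI (colour and number) for genes with the largest ratio over other nuclei, among those with at least 20 UMIs in the members of each library, and the B cell list genes with at least 20 UMIs outside the rule, by piece and library, BT2 left of vehicle. Camk4 reaches 63.6% of BT2 and 68.9% of vehicle nuclei with Skap1 and another T gene, and Bach2 86.1% of BT2 and 72.4% of vehicle B-side nuclei.

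Among genes outside the rule with at least 20 UMIs in the members of each library, the largest ratio over other nuclei was that of Camk4, a calcium-calmodulin kinase of T cells, with 789 CPM in BT2 and 669 CPM in vehicle members, against 20.5 CPM in the other nuclei of each library. Thinned to 500 UMIs, it was seen in 29.7% of BT2 and 28.7% of vehicle members and in at most 3.62% of the macrophage, dendritic, neutrophil, endothelial, fibroblast and cardiomyocyte nuclei. Others among the 20 genes with the largest such ratios were the T cell kinase Zap70, the cytokine signalling factor Stat4, the receptor chains Il2ra and Il2rb, the chemokine Ccl5, the tissue-resident factor Zfp683, Gata3 and the receptors Klrc2, Klrd1 and Ly49s6. Receptors of the Ly49 and Klr families have near-identical copies, so their counts are uncertain.

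Of 6961 genes with at least 20 UMIs in the higher library, 213 (3.06%) were at least 2-fold higher in BT2 members and 370 (5.32%) at least 2-fold lower, 583 (8.38%) in either direction, with a median log2 ratio of -0.06. Among 123 genes with a level at least 5-fold over other nuclei in both libraries, a set chosen after the data were seen, 1 was 2-fold higher and 10 were 2-fold lower. Their median ratio was 0.861, and in all other nuclei the same genes had a median ratio of 0.669. A count of 20 UMIs was 39.5 CPM in BT2 and 23.7 CPM in vehicle members, as their totals differed. The cut, which the 123 genes also had to pass, therefore admitted genes high in vehicle at lower levels. The balance of higher and lower counts was partly set by it.

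The higher one was Kir3dl1, a killer immunoglobulin-like receptor, with 130 UMIs in 54 BT2 nuclei and 93 UMIs in 56 vehicle nuclei (ratio 2.33, exact 95% interval 1.77 to 3.07). Its ratio in the other nuclei was 0.96. The interleukin-12 receptor chain Il12rb2 (14 UMIs in BT2 and 58 in vehicle, ratio 0.40, 0.21 to 0.73) and the interleukin-18 receptor chain Il18r1 (22 UMIs in BT2 and 85 in vehicle, ratio 0.43, 0.26 to 0.70) were among the lower ones. In the other nuclei the ratio was 0.66 for Il12rb2 and 0.35 for Il18r1, below 1 as well. Lef1 had 124 UMIs in BT2 and 133 in vehicle (ratio 1.55, 1.21 to 2.0), short of 2-fold.

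By list, and outside the genes of the rule, 0 of the 14 T cell receptor genes with enough UMIs were 2-fold higher, and the 17 genes of the list had 1100 UMIs in BT2 and 2070 in vehicle members (summed ratio 0.885, 0.822 to 0.952). The cytotoxic and NK list had 0 higher and 1 lower (Klrb1a) of 13, with a summed ratio of 0.92 (0.83 to 1.02). The T lineage transcription factors had 0 of 12 past 2-fold, a median log2 ratio of 0.24 and a summed ratio of 1.09 (1.03 to 1.15). The B cell list had 0 higher and 1 lower (Ralgps2) of 8, and its sum and its median differed in sign: the summed ratio was 1.25 (1.18 to 1.33) and the median log2 ratio -0.24. Ebf1 alone held 1109 of the list's 1804 BT2 UMIs and 1287 of its 2401 vehicle UMIs, and without it the summed ratio was 1.04 (0.94 to 1.14). Ebf1 was at 2193 CPM in BT2 and 1528 CPM in vehicle members, below its 3196 CPM in the other BT2 and 2655 CPM in the other vehicle nuclei.

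**Figure D3:**
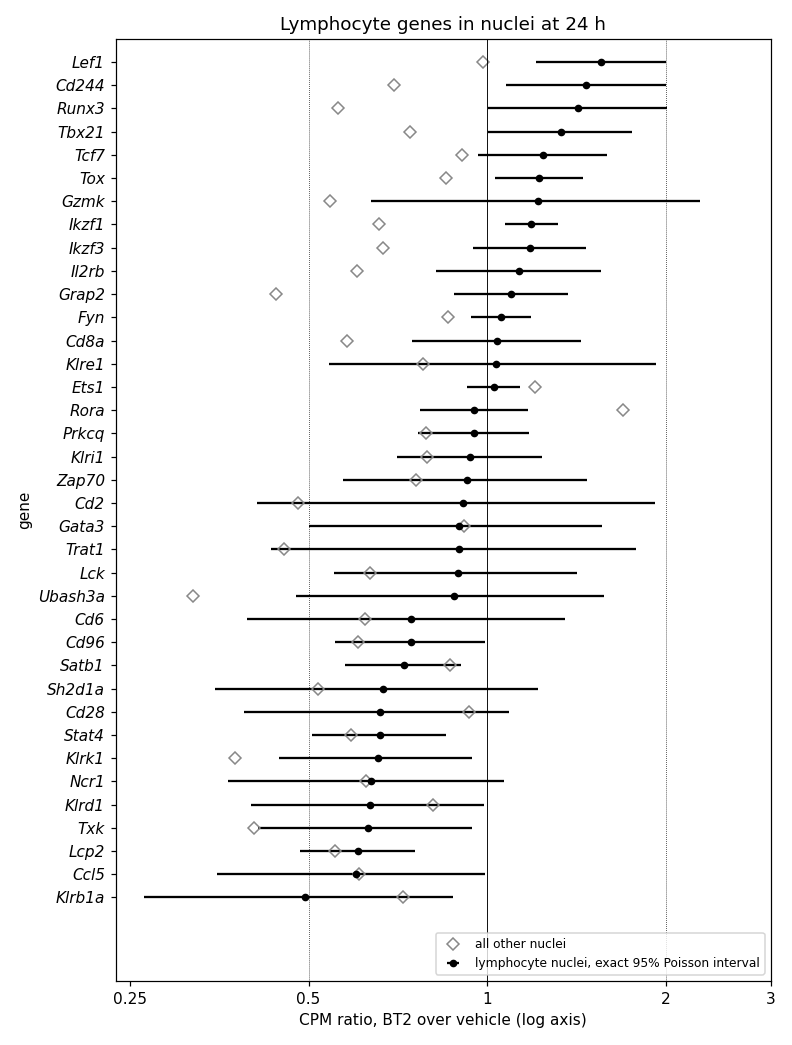
CPM ratio of BT2 over vehicle (log x axis) for genes of the T cell receptor, cytotoxic and NK, and T lineage factor lists with at least 20 UMIs outside the rule. Black points are lymphocyte nuclei with exact 95% intervals from Poisson counts, and open diamonds all other nuclei. Lef1 is at 1.55 at the top and Klrb1a at 0.49 at the bottom.

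Heat shock genes summed to 542 CPM in BT2 and 240 CPM in vehicle members (ratio 2.26, 1.88 to 2.72). Of the 5 with enough UMIs, 3 were at least 2-fold higher, beside 3.06% of all 6961 genes. They were seen in 34.6% of BT2 and 34.3% of vehicle members. In the other nuclei they summed to 458 CPM in BT2 and 265 CPM in vehicle, higher with BT2 as well. Hsph1, a cochaperone of Hsp70, had 80 UMIs in BT2 and 28 in vehicle (ratio 4.76, 3.06 to 7.60), and its ratio in the other nuclei was 3.09. In the tissue libraries at 24 h, 0 of 9 tested heat shock genes were higher with BT2 and 6 were lower (edgeR). Of all genes tested there, 18.9% were called higher and 20.7% lower. The cell cycle list was seen in 23.5% of BT2 and 24.9% of vehicle members, with a summed ratio of 1.35 (1.10 to 1.67). Of its genes with enough UMIs, 1 of 5 was at least 2-fold higher, beside the same 3.06% of all genes. That gene, Mki67, a proliferation marker, had 45 UMIs in BT2 and 35 in vehicle (ratio 2.14, 1.35 to 3.43) and a ratio of 1.54 in the other nuclei. The cell cycle list summed to 334 CPM in BT2 and 247 CPM in vehicle members. In the other nuclei it summed to 510 CPM in BT2 and 375 CPM in vehicle, higher with BT2 as well. In tissue at 24 h, 17 of 17 cell cycle genes were lower with BT2, beside 20.7% of all genes.

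Fibroblast and macrophage markers moved the same way in members and in the other nuclei, but cardiomyocyte, endothelial and lymphatic endothelial markers did not. Cardiomyocyte markers summed to 18425 CPM in BT2 and 19803 CPM in vehicle members. In the other nuclei they summed to 12913 CPM in BT2 and 11908 CPM in vehicle. Endothelial markers summed to 1216 CPM in BT2 and 936 CPM in vehicle members. Outside the members they summed to 2759 CPM in BT2 and 2918 CPM in vehicle nuclei. Fibroblast markers summed to 2369 CPM in BT2 and 1224 CPM in vehicle members, and to 3009 CPM in the other BT2 and 1642 CPM in the other vehicle nuclei. Macrophage markers summed to 840 CPM in BT2 and 1209 CPM in vehicle members, and to 958 CPM in the other BT2 and 1536 CPM in the other vehicle nuclei. The endothelial, fibroblast and macrophage sums include the rule genes Flt1, Pdgfra and Csf1r, so their levels in members were partly set by the rule. Without rule genes the member ratios of BT2 over vehicle were 1.27 (1.13 to 1.42), 1.93 (1.77 to 2.10) and 0.70 (0.62 to 0.78), in that order. Gpnmb, a macrophage gene, had 46 UMIs in BT2 and 325 in vehicle members (ratio 0.24, 0.17 to 0.32). Col3a1, a fibroblast collagen, had 291 UMIs in BT2 and 147 in vehicle members (ratio 3.30, 2.69 to 4.05). Ttn, Ryr2 and Myh6 made up 2% of UMIs or more in 22 BT2 and 29 vehicle members. The part of transcripts of other cell types in the lymphocyte ratios was not tested.

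The largest ratios over all genes outside the rule rested on few nuclei. Levels had to reach 20 UMIs and exceed those of the other nuclei in the higher library only. These genes therefore passed through the group where they were high. The 12 highest were Kcnq3 (26 UMIs in 5 BT2 nuclei and 0 in vehicle, at least 14.4-fold higher against a floor of 3 UMIs over the vehicle members), Pcdh11x, Abcb1b, Ttc26, Sv2c, Kcnv2, Has2, Gap43, Pkhd1l1, Grik2, Sdc2 and Itgb8. Kcnq3 and Kcnv2, both potassium channel subunits, turned without the limits on other-type genes, Kcnq3 to a ratio of 0.64 (0.42 to 0.94, 29 UMIs in BT2 and 209 in vehicle) and Kcnv2 to 0.87, and with a marker sum of at least 3 Kcnq3 had 3 UMIs in BT2 and 0 in vehicle. Sdc2, a syndecan, had the most nuclei, 33 in BT2 and 21 in vehicle, with 97 UMIs in BT2 and 29 in vehicle. The 12 lowest were Nos2 (0 UMIs in BT2 and 20 in vehicle, at least 4.0-fold lower against the same floor over the BT2 members), Ifi44l, Milr1, Bloc1s2, Naip6, Mcoln2, Fam53c, Sh2b3, C3ar1, Cnep1r1, Tbc1d25 and P2rx4. All 12 of the higher genes had ratios above 1 in the other nuclei too, and 11 of the 12 lower genes had ratios below 1 there, Fam53c being the exception.

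In the tissue libraries, lymphocyte genes were taken as members of the lymphocyte lists with at least 10 UMIs in lymphocyte nuclei. At least 25% of their nuclear UMIs also had to lie there. This left 27 genes, and 23 passed the filter on low counts. Il23r, Pax5, Themis and Trat1 did not. The 27 include the rule genes Skap1, Themis, Cd247, Bcl11b, Cd3e, Cd3g and Pax5. Their UMIs also chose the nuclei, so their share there was partly set by the rule, and Bcl11b is among the genes called below. In tissue, fewer cells of a type and less RNA per cell cannot be told apart, and most UMIs of these genes lay outside the members. At 24 h, 5 of 23 were higher with BT2 (21.7%, beside 18.9% of all 15216 genes tested) and 0 were lower (20.7% of all genes, 39.5% in either direction), so the share called higher was near the background and the share called in either direction was below it. The median log2 fold change was 0.70 (all genes -0.01). Genes of other cells moved in the same libraries: of the cardiomyocyte markers 8 of 9 were higher (median log2 fold change 1.05), of the pan-leukocyte genes 10 of 13 were lower (median -1.11), and of the macrophage markers 1 of 13 was higher and 6 were lower (median -0.95). Their part in the lymphocyte gene values was not tested.

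Ccl5 had 14.5 and 12.7 CPM in BT2 tissue at 24 h, against 8.50 and 8.37 CPM in vehicle tissue. Its log2 fold change was 0.69 ± 0.14 (SE, edgeR adjusted p = 0.00579), and the groups did not overlap. Il2rb had 27.4 and 21.5 CPM with BT2, against 13.7 and 10.7 CPM with vehicle (log2 fold change 1.0 ± 0.25, edgeR adjusted p = 0.0152). Eomes, a factor of cytotoxic lymphocytes, had 2.67 and 2.61 CPM with BT2, against 1.15 and 1.28 CPM in vehicle (1.12 ± 0.30, edgeR adjusted p = 0.0184). Il2ra had 1.63 and 1.84 CPM with BT2, against 0.833 and 0.497 CPM with vehicle (1.36 ± 0.39, edgeR adjusted p = 0.0267). Bcl11b, a T lineage factor, had 4.43 and 3.79 CPM with BT2, against 2.01 and 2.65 CPM with vehicle (0.82 ± 0.28, edgeR adjusted p = 0.046). In each of these 5 genes both BT2 libraries lay above both vehicle libraries.

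In the lymphocyte nuclei Ccl5 had 22 UMIs in BT2 and 61 in vehicle (ratio 0.60, 0.35 to 0.99), lower with BT2 where the tissue level was higher. Il2rb had 68 UMIs in BT2 and 100 in vehicle nuclei (1.13, 0.82 to 1.56), Il2ra 50 in BT2 and 105 in vehicle (0.79, 0.55 to 1.12), and Eomes 9 in each library. In all other nuclei the ratio was 0.61 for Ccl5, close to that in the lymphocyte nuclei, 0.60 for Il2rb and 0.68 for Il2ra. Without BT2 replicate 1 at 24 h the count of higher genes was 0, without vehicle replicate 2 it was 1, and without BT2 replicate 2 it was 3.

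The other tested genes of the rule did not pass at 24 h. Skap1 had 2.26 and 1.26 CPM with BT2, against 1.21 and 1.08 CPM with vehicle (log2 fold change 0.61, edgeR adjusted p = 0.244). Cd247 had 1.31 and 1.43 CPM with BT2, against 0.972 and 1.57 CPM with vehicle (edgeR adjusted p = 0.821). Cd3e had 1.40 and 1.47 CPM with BT2, against 1.56 and 2.03 CPM with vehicle (edgeR adjusted p = 0.529), and Cd3g 1.13 and 0.938 CPM with BT2, against 1.28 and 1.62 CPM in vehicle (edgeR adjusted p = 0.279). The B-side genes Bank1 and Ms4a1 were tested but are not among the 23, with 22.8% of nuclear UMIs in lymphocyte nuclei for Bank1 and 14.3% for Ms4a1. Bank1, a B cell scaffold protein, had 0.226 and 0.326 CPM with BT2, against 0.451 and 0.870 CPM with vehicle (log2 fold change -1.21 ± 0.52, edgeR adjusted p = 0.0949), and both BT2 libraries lay below both vehicle libraries. Ms4a1, the B cell surface protein CD20, had 0.633 and 0.489 CPM with BT2, against 0.486 and 0.746 CPM with vehicle (log2 fold change -0.13, edgeR adjusted p = 0.857), and the groups overlapped.

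By list at 24 h, read against the 18.9% of all genes called higher and the 20.7% called lower, 6 of 15 T lineage factors were higher and 3 lower, and 3 of 21 cytotoxic and NK genes were higher and 2 lower. Of the T cell receptor genes, 1 of 18 was higher and 2 were lower. Regulatory T cell genes had 3 of 9 higher and 0 lower, and innate lymphoid group 2 genes 3 of 5 higher and 1 lower. Other lists had more genes lower than higher. The B cell list had 1 of 20 higher and 5 lower, the plasma cell list 1 of 6 higher and 3 lower, and the migration and adhesion list 0 of 20 higher and 9 lower. Activation and checkpoint genes had 1 of 17 higher and 3 lower, type 17 genes 1 of 8 higher and 3 lower, and naive and recirculating genes 0 of 10 higher and 2 lower. The lists share some genes, and many nuclear UMIs of their genes lay outside the lymphocyte nuclei. The share inside was 1.51% for Ptpn13, 3.57% for Rora and 7.94% for Ikzf2, and 24.1% for Gata3 and 31.4% for Il2ra. The part of other cells in these list counts was not tested.

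At 4 h, 0 of 23 lymphocyte genes passed with edgeR (16.4% of all genes did, 6.67% higher and 9.73% lower) and 0 with DESeq2. The median log2 fold change was -0.49. The change of the BT2 effect from 4 h to 24 h passed for Ccl5 alone of the 23 (7.14% of all genes, 4.72% higher and 2.43% lower), at 1.06 ± 0.20 on the log2 scale (edgeR adjusted p = 0.0255). In 6 of the 8 fits that each leave out 1 library, 0 genes passed this test. At 4 h Ccl5 had 13.2 and 12.2 CPM with BT2, against 16.6 and 16.3 CPM with vehicle.

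**Figure D4:**
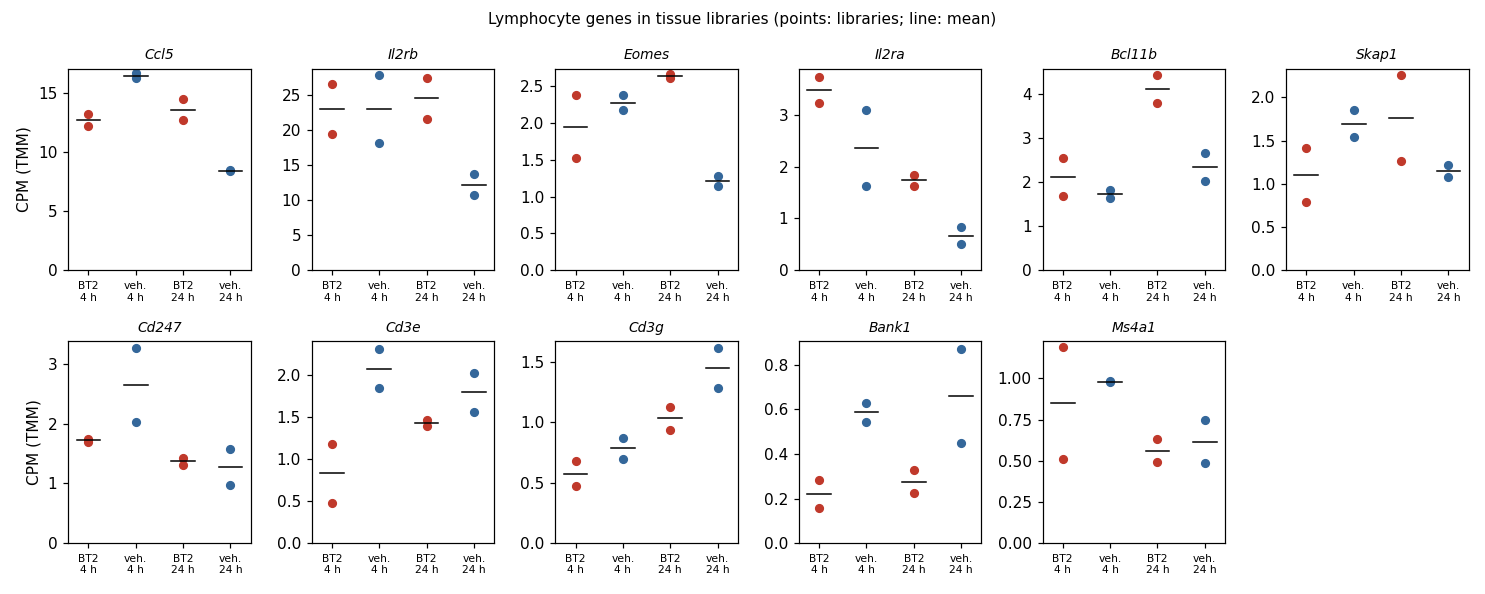
CPM with TMM scaling (y axis, from 0) in each tissue library for the 5 genes called at 24 h and the other tested T-side and B-side genes of the rule, BT2 left of vehicle at 4 h and then 24 h; points are libraries and lines means. Both BT2 points lie above both vehicle points at 24 h for Ccl5, Il2rb, Eomes, Il2ra and Bcl11b.

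Promoters of lymphocyte genes were searched for 9 short motifs on both strands, in windows from 250 bases before to 50 after each start (RefSeq, build GRCr8, matched by symbol). Of the 123 genes 91 matched, with 109 promoters. The RUNX-type motif TGTGGT was in 26.6% of these and 17.3% of all 33469 promoters, and its longer form TGTGGTT in 14.7% and 5.57%. The ETS-type motif CAGGAAG was in 18.3% and 12.5%, and ACTTCC in 24.8% and 22.6%. TATAAA was in 16.5% and 14.2%. The motifs AGGTGTG (2.75% and 5.61%), GATAAG (4.59% and 7.05%), CGCG (29.4% and 35.7%) and CACGTG (5.5% and 6.42%) were at lower shares in the lymphocyte set. All 9 are given because the motifs in capitals were picked after these shares were seen, and a match is a description of letters. The sequences of Cd96, a defining gene, with TGTGGT or its complement in capitals, and of Cd247, a rule gene, with CAGGAAG as its complement in capitals, are at chr11:68164676-68164975 and chr13:80576019-80576318, both on the plus strand.
Cd96: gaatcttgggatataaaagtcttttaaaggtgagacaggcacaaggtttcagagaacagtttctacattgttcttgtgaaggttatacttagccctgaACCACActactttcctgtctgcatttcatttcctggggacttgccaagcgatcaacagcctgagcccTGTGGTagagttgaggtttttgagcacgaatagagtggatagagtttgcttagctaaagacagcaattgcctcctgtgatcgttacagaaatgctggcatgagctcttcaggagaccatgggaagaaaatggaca
Cd247: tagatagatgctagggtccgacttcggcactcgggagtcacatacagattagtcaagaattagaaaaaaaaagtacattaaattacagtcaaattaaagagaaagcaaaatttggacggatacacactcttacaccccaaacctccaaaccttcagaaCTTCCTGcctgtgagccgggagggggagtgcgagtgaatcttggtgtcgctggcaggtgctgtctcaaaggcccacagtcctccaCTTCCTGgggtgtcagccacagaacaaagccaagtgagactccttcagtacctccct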

How the data were processed

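The authors deposited raw counts per gene for the tissue libraries and, for each nuclear barcode, UMI counts of every gene. Per the submitters' processing notes, the tools were Trim Galore, STAR, featureCounts and Cell Ranger on Rnor_6.0, and per the file headers Cell Ranger was version 8.0.1. The strand setting of the counting is not given in the sources. Total counts per tissue library were 10397310 to 24480984. The members, lists and alternatives were chosen with earlier results of these data known. UMIs were summed over the members of each library and divided by their total (505723 in BT2, 842127 in vehicle). Ratios carry exact 95% intervals, with floors at 3 counts, and cover counting error only. Thinning used 500 UMIs. Named nuclear genes had a proper symbol, lay outside the rule, reached 20 UMIs in the higher library, with a CPM above that of the other nuclei there. The 12 highest and 12 lowest ratios and, among genes with at least 20 UMIs in the members of each library, the 20 with the largest CPM ratio over other nuclei were kept. Some genes that meet these rules are not reported here. Tissue genes past the threshold and the genes of the rule were named, and further genes were named after their values were seen. Of the list genes, 309 matched by symbol, 3 by another symbol and 3 did not match. Tissue counts were tested with edgeR 4.0.16 (quasi-likelihood, TMM, 15216 of 31580 genes, 4 residual degrees of freedom, two-sided, Benjamini-Hochberg adjusted p under 0.05) over all 8 libraries, with DESeq2 1.42.0 as an alternative. The edgeR test and the exact intervals of the nuclear ratios were tried on simulated data, and DESeq2 was not. Python 3.11.15 and R 4.3.3 were used, and 0 columns were unassigned.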

Additional observations from a re-analysis of the deposited data

Results flagged for a closer look

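Ccl5 stood out because its BT2 effect in tissue differed between the times, by a test of the difference itself. The BT2 effect at 24 h minus that at 4 h was 1.06 on the log2 scale (edgeR adjusted p = 0.0255). Ccl5 was 1 of 23 lymphocyte genes called higher by this test (4.35%), near the 4.72% of all genes. The effect was 0.69 at 24 h, where both BT2 libraries were higher, and -0.37 at 4 h, where both were lower. The 4 h effect by itself did not pass (edgeR adjusted p = 0.104). In the lymphocyte nuclei at 24 h the Ccl5 ratio of BT2 over vehicle was 0.60, and in all other nuclei it was 0.61.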

How the results depend on the processing

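A marker sum of at least 3 UMIs gave lymphocyte shares of 2.18% in BT2 and 2.74% in vehicle, with 139 genes 2-fold higher. With no UMI of other-type genes the shares were 1.73% in BT2 and 1.97% in vehicle, the T-side 88.5% in BT2 and 85.0% in vehicle, the B-side 7.69% in BT2 and 7.93% in vehicle, and 228 genes were lower. Thinning to 500 UMIs gave 2.23% in BT2 and 2.60% in vehicle, with 2.33% of vehicle members mixed. A minimum of 50 UMIs left 78 genes higher and 111 lower. Further alternatives were chosen after seeing the data. Without the limits on other-type genes the shares were 6.34% in BT2 and 9.84% in vehicle, vehicle nuclei were 64.3% T-side and 20.8% mixed, 738 genes were lower, and the ratios of Kcnv2 and Kcnq3 turned, to 0.87 and 0.64. With Skap1 left out of the marker sum the shares were 1.31% in BT2 and 1.72% in vehicle, the T-side 67.2% in BT2 and 58.6% in vehicle, the B-side 26.3% in BT2 and 29.3% in vehicle, and 12.1% of vehicle members were mixed. Skap1-alone nuclei had 215 genes lower, and nuclei with Skap1 and another T gene 112 higher. The cause was not tested. The BT2 share was below the vehicle share in each of these settings.

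In tissue, leaving out 1 library gave 0 to 6 genes higher at 24 h, and 0 to 2 for the change of the BT2 effect. For that change there were 3 genes with no filter on low counts and 2 with DESeq2. A replicate block gave 6 genes higher at 24 h and 2 for the change. The deviations of equal-numbered libraries correlated at -0.046 to 0.0965 between groups. Low correlations over all genes cannot exclude pairing, and the labels do not state any. The alternative of at least 50% of nuclear UMIs gave no value, since its 1 gene, Il23r, did not pass the filter. Depth limits the nuclear ratios, as many genes had few UMIs.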
